A study of Homo sapiens with 6 samples.

Results

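The genes described here build the machinery that shows peptides to T cells. They are the class I light chain B2M, the class I heavy chains HLA-E and HLA-F, the peptide transporter subunits TAP1 and TAP2, the loading factor TAPBP (tapasin), the trimming enzyme ERAP1, the class II chains HLA-DRA and HLA-DPA1, and CD74, the class II invariant chain. All probe sets annotated to these 10 gene symbols were taken, which gave 10 of the 21357 annotated genes and 30 probe sets of 54675 on the array. Of these, 25 were measured, meaning that the mean signal in at least 1 RNA pool exceeded 70.2, which is the median over the whole table, and 5 were not. Each of the 30 is annotated to a single gene. The 4 with the suffix _x_at, all of HLA-E and HLA-F, carry probes that can also bind transcripts of related genes, and the 9 with _s_at bind several transcripts of a gene or family, so their signals can be shared.

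In the class I pathway, the proteasome cuts proteins in the cytosol, the TAP1 and TAP2 transporter carries the peptides into the endoplasmic reticulum, and ERAP1 trims them. TAPBP then holds the heavy chain with its B2M light chain beside the transporter while a peptide is loaded. In the class II pathway, alpha chains such as HLA-DRA and HLA-DPA1 pair with beta chains, CD74 fills the groove until the endosome, and HLA-DM exchanges its remnant for peptide. Melanoma cells are known for expressing class II molecules, which most other non-immune cells make only after interferon gamma.

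Expression was measured in WM-266.4, an established human metastatic melanoma cell line, with culture serum listed as 10% for all groups. Cells were seeded 24 h before transfection with Oligofectamine, which was done in medium free of serum. They were harvested 72 h after it. The groups were siPIR cells, which received 200 pmol of a pool of 4 siRNA duplexes against PIR, siCTR cells, which received 200 pmol of a pool of 4 non-targeting duplexes, and NO cells, which received the reagent without oligonucleotide. The target, pirin, is a nuclear iron protein known to bind BCL3, a co-regulator of NF-kB. The labels name the siPIR pool as a siGENOME and the siCTR pool as an ON-TARGETplus product, which are different product lines. RNA of 3 extractions was mixed into 1 pool per group and hybridised to 2 Affymetrix HG-U133 Plus 2 arrays, so n is 1 pool per group, the 2 arrays show hybridisation error alone, and no test of the conditions was made.

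PIR checks the labels, and its signals were 392 and 382 in siPIR, 13544 and 13180 in siCTR, and 13990 and 14153 in NO. Of 9 melanocyte lineage markers, 8 had a probe set of their own and all 8 were measured. The brightest was TYR, the enzyme that starts melanin synthesis, with 40133 and 37848 in siPIR, 37842 and 38838 in siCTR, and 34921 and 36434 in NO. The next were S100B, a calcium-binding protein, which differed on the log2 scale by -0.02 from siCTR and -0.21 from NO, and MITF, the lineage's transcription factor, by -0.07 and -0.20. Leukocytes, which also make class II molecules, were looked for with 10 markers, of which 4 were measured. PTPRC, the pan-leukocyte phosphatase CD45, was below the measured range in each pool, with 1.5 and 7.6 in siPIR, 3.0 and 22.8 in siCTR, and 57.7 and 36.9 in NO. The signals summed over the 10 markers were 813 and 748 in siPIR, 557 and 551 in siCTR, and 623 and 689 in NO. CD14, a monocyte marker, was the brightest of them in siPIR, with 275 and 290 there, 149 and 152 in siCTR, and 61.4 and 123 in NO. ITGAM, the integrin chain CD11b of myeloid cells, was lower against NO, with 59.5 and 32.3 in siPIR, 62.9 and 57.1 in siCTR, and 135.5 and 104.8 in NO. FCER1G, a signalling chain of myeloid cells, differed from siCTR by 0.45 and from NO by 0.54 on the log2 scale, above all control arrays. The 5 endothelial markers, of which 2 were measured, summed to 556 and 473 in siPIR, 442.6 and 422.5 in siCTR, and 568 and 709 in NO. Their 3 brightest were KDR, which differed by 0.10 from siCTR and -0.59 from NO, PECAM1, at 0.91 and -0.02, and TEK, at 0.13 and 0.37, which was not measured. The 6 fibroblast markers summed to 23946 and 22951 in siPIR, 14614 and 15806 in siCTR, and 12722 and 12639 in NO, nearly all of it COL1A2, a collagen chain. COL1A1, its partner, differed by -0.09 from siCTR and 0.71 from NO, and LUM, a matrix proteoglycan, by -0.44 and -0.61. Over all probe sets, log2 signals of repeat arrays correlated at 0.9725 for siPIR, 0.9675 for siCTR and 0.9764 for NO, and siCTR array 2 correlated slightly more with NO array 1 (0.9684) than with its own repeat. The part of these marker differences in the results below was not tested.

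A difference between pools is given as log2(signal + 5.4), averaged over the arrays of each pool, siPIR minus control, with its range over the 4 pairs of arrays. A probe set was called when this difference reached 1, or 2-fold, in either direction and the arrays of the pools did not overlap. Of the 25 measured probe sets, 3 were called lower and 0 higher against siCTR. Of all 29692 measured probe sets, 8.52% were called in this comparison, 4.39% higher and 4.14% lower. Against NO, 3 were called lower and 0 higher, beside 9.99% of all probe sets, 3.74% higher and 6.25% lower. Against both controls, 2 were called, both lower, beside 4.63% of all, 1.57% higher and 3.06% lower. These 2 are the HLA-DPA1 probe set 213537_at and the ERAP1 probe set 214012_at. The others called were TAP2 225973_at against siCTR and ERAP1 209788_s_at against NO. Over all measured probe sets, the 2531 calls against siCTR became 4413 without siCTR replicate 2. The 1375 against both controls became 2064 without siPIR replicate 1 and 2061 without siPIR replicate 2. With 1 array left out of a pool, the condition that arrays do not overlap is easier to meet.

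Regardless of size, both siPIR arrays lay above all 4 control arrays in 11 of the 25 probe sets and below all 4 in 4. The shares over all measured probe sets were 24.9% above and 21.5% below, 46.4% in all. This count by order alone was made after the values were seen. Probe sets of the same gene, such as the 2 of HLA-DRA, are counted separately in it and are not independent readings. The median log2 difference of the 25 was 0.18 against siCTR and 0.11 against NO, beside 0.05 and -0.01 over all measured probe sets. Without _x_at and _s_at probe sets, 12 were measured, of which 5 were above and 3 below all control arrays. In bulk RNA such as this, fewer cells of a type and less RNA per cell cannot be told apart.

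At a lower limit of 1.5-fold, 5 probe sets were called against siCTR, beside 22.2% of all. CD74 1567628_at was the only one of them that was higher in siPIR, and TAP2 204770_at joined the lower ones. Against NO, 7 were called, beside 25.9% of all, and TAP1 202307_s_at was the only one that was higher. Against both controls, 3 were called, beside 13.8%, TAP2 225973_at being the one added.

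**Figure D1:**
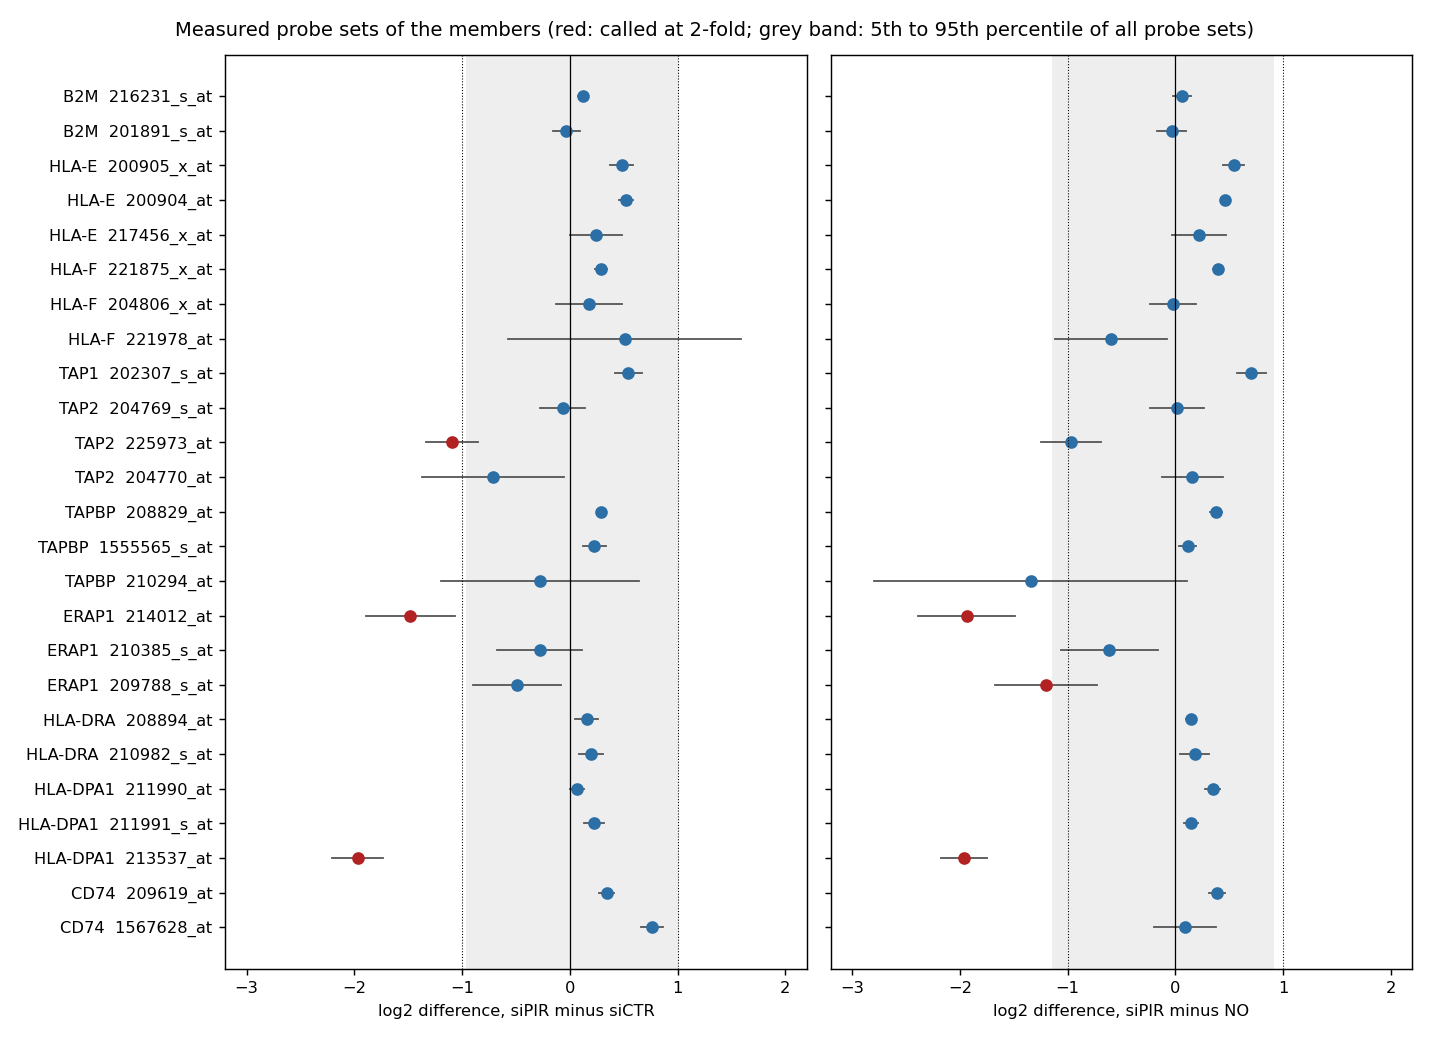
Log2 differences of the 25 measured probe sets between the siPIR pool and the siCTR pool (left) or the NO pool (right). Points are differences of pool values (red where called), horizontal lines the range over the 4 pairs of arrays, dotted lines mark 2-fold and the grey band holds the central 90% of all measured probe sets. HLA-DPA1 213537_at and ERAP1 214012_at lie left of the 2-fold line in both panels, while the HLA-E, TAP1 and CD74 probe sets lie a little right of 0.

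Among the class I heavy chains, HLA-E was higher in the siPIR pool with 2 of its 3 probe sets clear of all control arrays. HLA-E presents peptides from the leaders of other class I chains and is the ligand of the inhibitory receptor NKG2A on natural killer cells. Its probe set 200904_at had signals of 2922 and 2852 in siPIR, 2081 and 1938 in siCTR, and 2125 and 2063 in NO. The lowest siPIR array was thus above the highest control array. It differed by 0.52 on the log2 scale from siCTR (0.45 to 0.59) and by 0.46 from NO (0.42 to 0.50), a 1.44-fold and a 1.38-fold higher level, which did not reach the call. The brighter probe set 200905_x_at differed by 0.48 against siCTR and 0.54 against NO, and 217456_x_at by 0.24 and 0.22 with arrays that overlapped those of NO.

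HLA-F, a class I heavy chain that mostly stays inside resting cells, gave no common direction against NO. Against siCTR its 3 probe sets were all higher by their pool values, from 0.18 to 0.51, though not all without overlap. Probe set 221875_x_at had 3501 and 3386 in siPIR, 2752 and 2882 in siCTR, and 2572 and 2654 in NO, and the siPIR arrays were the highest. It differed by 0.29 on the log2 scale from siCTR and by 0.40 from NO. Probe set 204806_x_at had 1828 and 2382 in siPIR, 1703 and 2004 in siCTR, and 2152 and 2086 in NO, so siPIR overlapped both controls. Its difference from NO was -0.02, and 0.0011 with each array centred on its median. The dim 221978_at differed by 0.51 against siCTR, with a range of -0.57 to 1.59, and by -0.60 against NO.

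B2M, the light chain shared by all classical class I molecules, differed little between the pools. Probe set 216231_s_at had 35758 and 36743 in siPIR, 32878 and 33860 in siCTR, and 33166 and 36241 in NO. The siPIR arrays lay above siCTR, by 0.12 on the log2 scale (0.08 to 0.16), and overlapped NO. The difference from NO was 0.06 (-0.02 to 0.15), and -0.07 after quantile normalization. Probe set 201891_s_at differed by -0.03 and -0.04, with siPIR arrays on either side of the controls. The B2M probe set 232311_at was not measured.

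TAP1, the transporter subunit, had the largest upward difference among the class I members. Its only probe set 202307_s_at had 753 and 690 in siPIR, 516 and 472 in siCTR, and 419 and 463 in NO. The groups siPIR and controls did not overlap. It was higher in siPIR by 0.54 on the log2 scale against siCTR (0.42 to 0.67) and by 0.70 against NO (0.57 to 0.84), or 1.46-fold and 1.63-fold higher, and neither was called. siCTR was itself above NO by 0.16 (0.03 to 0.30).

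TAPBP, which bridges the heavy chain and the transporter, was higher in siPIR by a smaller step. Probe set 208829_at had 2200 and 2305 in siPIR, 1850 and 1832 in siCTR, and 1761 and 1706 in NO. Each siPIR array was above each control array, by 0.29 on the log2 scale against siCTR (0.25 to 0.33) and by 0.38 against NO (0.32 to 0.43). Probe set 1555565_s_at showed 0.23 and 0.11, again with no overlap. The dim probe set 210294_at had 13.0 and 53.5 in siPIR, 36.7 and 32.3 in siCTR, and 49.3 and 122 in NO, and its difference from NO ranged from -2.79 to 0.11 over pairs of arrays.

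**Figure D2:**
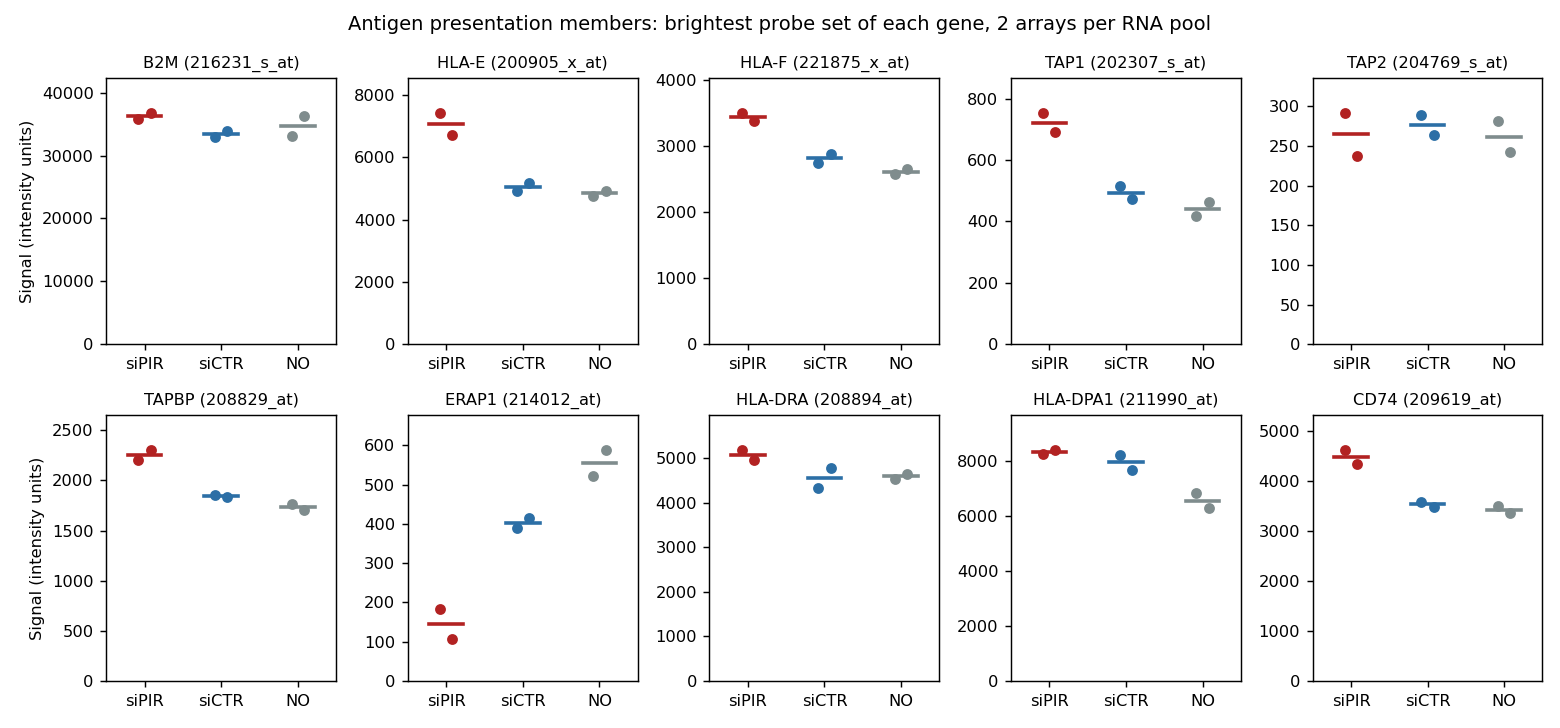
Signal of the brightest probe set of each of the 10 genes on the 6 arrays, in intensity units on an axis that starts at 0, with 1 point per array and a line at the mean of each pool. The siPIR points stand above both controls for HLA-E, HLA-F, TAP1, TAPBP, HLA-DRA and CD74, by a narrow margin for HLA-DPA1, and below both for ERAP1.

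TAP2, the partner of TAP1, gave different answers by probe set. Probe set 204769_s_at had 291 and 237 in siPIR, 289 and 263 in siCTR, and 281 and 242 in NO, and the pools overlapped fully. Probe set 225973_at had 167 and 126 in siPIR, 326 and 305 in siCTR, and 307 and 273 in NO. It was called lower against siCTR, at -1.09 (-1.33 to -0.85), and not against NO, at -0.97 (-1.25 to -0.69). Without siPIR replicate 2 it was no longer called against siCTR, at -0.90, nor did it pass the filter at the 75th percentile of signals. Without siPIR replicate 1 or without NO replicate 2 it was called against NO. Probe set 204770_at, near the lower limit, differed by -0.71 against siCTR and 0.16 against NO. The TAP2 probe set 208428_at was not measured.

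ERAP1, the aminopeptidase that trims peptides to class I length, was lower in the siPIR pool by the means of its 3 measured probe sets, though to unlike degrees. Its probe set 214012_at had 183 and 108 in siPIR, 390 and 416 in siCTR, and 522 and 589 in NO. The 3 pools did not overlap, with siPIR lowest and NO highest. The siPIR pool stood at -1.48 on the log2 scale from siCTR (-1.89 to -1.07) and at -1.94 from NO (-2.39 to -1.49), a level 2.79-fold and 3.83-fold lower in siPIR, called in both comparisons. Over 15 alternative settings the call held in each, with differences from -1.85 to -1.12 against siCTR and from -2.31 to -1.57 against NO. Some of these settings could not remove the call, such as the 1.5-fold limit, no filter or leaving out an array of the third pool.

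The other measured probe sets of ERAP1 pointed the same way by less. Probe set 209788_s_at had 100 and 72.3 in siPIR, 107 and 139 in siCTR, and 243 and 169 in NO, and differed by -0.49 against siCTR and by -1.20 against NO. It was called against NO, but not without siPIR replicate 2 (-0.98), without NO replicate 1 (-0.95) or with a filter at the 75th percentile of signals, which it does not pass. Probe set 210385_s_at differed by -0.28 (-0.67 to 0.11) and -0.62 (-1.07 to -0.17), with arrays that overlapped those of siCTR. In all 3 probe sets siCTR was also below NO, by -0.46, -0.34 and -0.71, with no overlap, so the siCTR mean lay between those of siPIR and NO. The ERAP1 probe sets 209701_at and 214034_at were not measured.

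In the class II arm, HLA-DRA, the alpha chain of HLA-DR, was marginally higher in siPIR. Probe set 208894_at had 5184 and 4954.5 in siPIR, 4323 and 4782 in siCTR, and 4530 and 4641 in NO. The siPIR arrays were the highest, by 0.16 against siCTR (0.05 to 0.26) and 0.14 against NO (0.09 to 0.19). Probe set 210982_s_at gave 0.20 and 0.18, also without overlap. The lowest array of either probe set was a siCTR or NO array.

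CD74, the invariant chain, was higher with its bright probe set. Probe set 209619_at had 4616 and 4328 in siPIR, 3574 and 3475 in siCTR, and 3490 and 3346 in NO. The siPIR arrays lay above all controls, by 0.34 against siCTR (0.28 to 0.41) and 0.39 against NO (0.31 to 0.46). The dimmer 1567628_at had 318 and 277 in siPIR, 172 and 173 in siCTR, and 319 and 243 in NO, so it set siCTR apart from the other pools. The CD74 probe set 1567627_at was not measured.

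HLA-DPA1, the alpha chain of HLA-DP, held the largest difference of any member in either comparison, and in 1 of its 3 probe sets alone. Probe set 213537_at had 227 and 173 in siPIR, 816 and 768 in siCTR, and 779 and 800 in NO. The controls lay together and the siPIR arrays far below them. On the log2 scale siPIR was at -1.97 from siCTR (-2.20 to -1.73) and at -1.96 from NO (-2.18 to -1.75), a level 3.91-fold and 3.90-fold lower in siPIR, while siCTR and NO differed by 0.004 (-0.06 to 0.07). It was called under all 15 alternatives in both comparisons, from -2.16 to -1.78 against siCTR and from -2.16 to -1.77 against NO. As for ERAP1, some of these could not remove the call, among them the looser limit, no filter and the subsets of probe sets.

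The other probe sets of HLA-DPA1 did not share this. Probe set 211990_at had 8260 and 8410 in siPIR, 8237 and 7682 in siCTR, and 6826 and 6303 in NO. It was higher in siPIR by 0.07 against siCTR (0.004 to 0.13) and by 0.35 against NO. Probe set 211991_s_at had 2254 and 2096 in siPIR, 1909 and 1808 in siCTR, and 1986 and 1945 in NO, or 0.23 and 0.14 higher. The 3 probe sets of this gene thus spanned 2.19 log2 units against siCTR and 2.31 against NO.

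Spans of at least 1 log2 unit among probe sets of a gene were seen elsewhere on the array. Of 6657 genes with at least 2 measured probe sets, 15.8% spanned at least 1 log2 unit against siCTR, 18.6% against NO, and 13.4% between siCTR and NO. Among the members, HLA-DPA1, ERAP1 (1.20) and TAP2 (1.02) did so against siCTR. Against NO, HLA-DPA1, ERAP1 (1.32), TAP2 (1.13) and TAPBP (1.72) did. Which transcripts or transcript ends each probe set of these genes detects was not analysed here, so no single level of any of them is given. As a sign of RNA quality, the array's control probe sets for the 3' end of ACTB gave 1.13 times the signal of those for its 5' end in siPIR, 1.23 and 1.26 times in siCTR, and 1.23 and 1.27 times in NO.

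**Figure D3:**
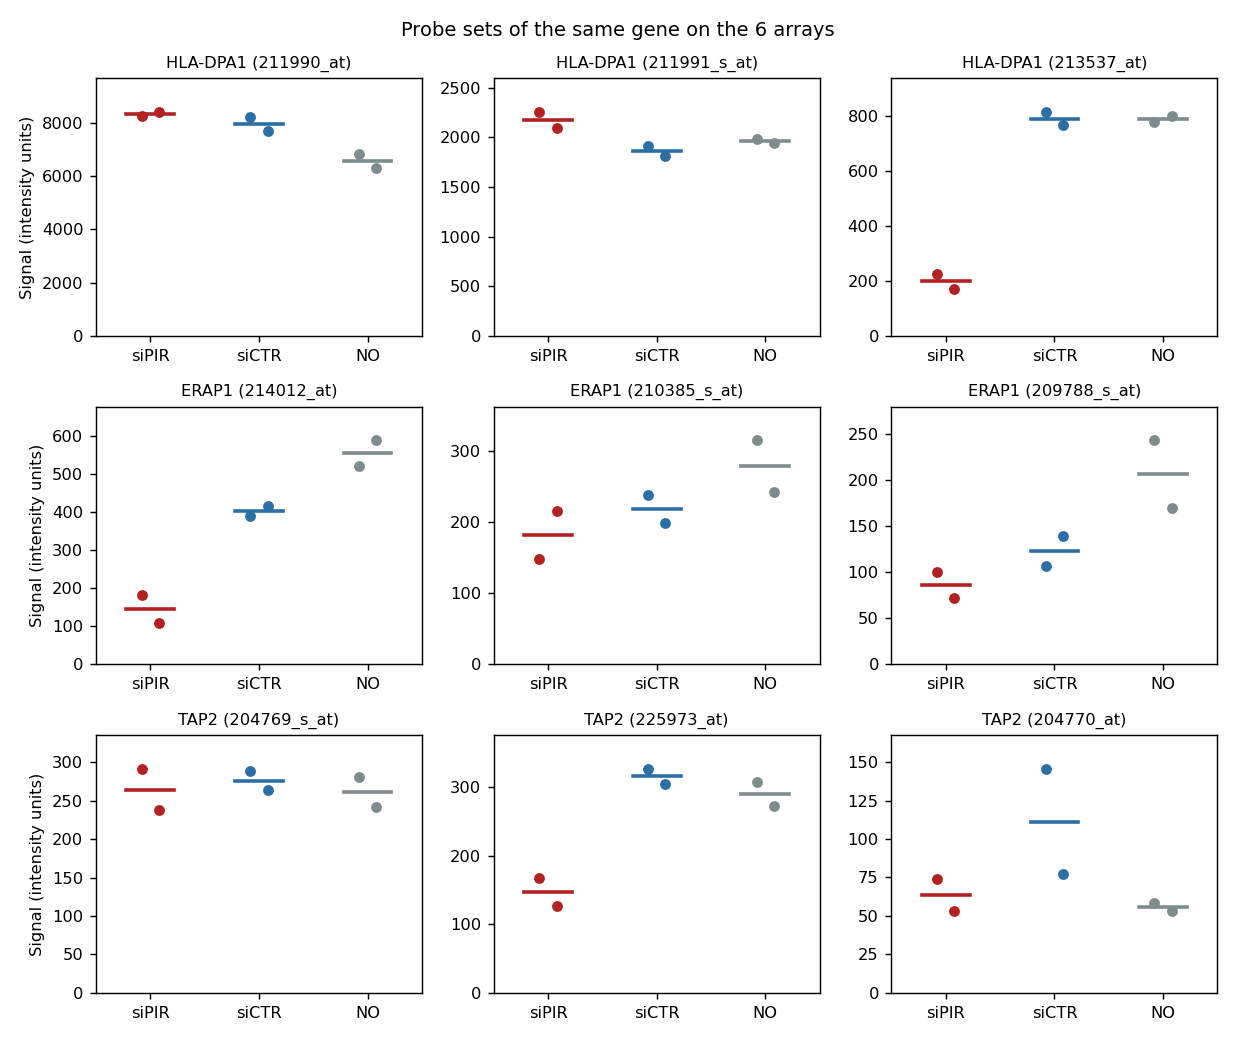
Signals on the 6 arrays of the 3 measured probe sets each of HLA-DPA1, ERAP1 and TAP2, in intensity units with a point per array and a line at each pool mean. HLA-DPA1 213537_at and TAP2 225973_at drop in siPIR while 211990_at and 204769_s_at of the same genes do not, whereas the 3 ERAP1 probe sets are all lowest in siPIR by their means.

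The controls also differed from each other for some members. Between siCTR and NO, 1 of the 25 probe sets was called, the dim TAPBP probe set 210294_at, at -1.07 (-1.76 to -0.38), beside 4.81% of all measured probe sets, 3.53% lower. The call was lost under 5 of 15 alternatives. The 1429 calls over all probe sets became 3093 without siCTR replicate 2, 2637 without NO replicate 1 and 2213 without NO replicate 2. The median difference of the 25 was -0.02, beside -0.04 over all probe sets, and 0.04 with each array centred on its median. At 1.5-fold, 4 were called, beside 11.5% of all.

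Other genes of the pathway were read from the brightest probe set annotated with each gene alone. Of 51 genes in 4 lists, 46 had such a probe set and 42 were measured. Against siCTR, 2 were called lower and 0 higher, where 8.01% of all 13071 measured genes were called, 3.75% higher and 4.26% lower. Against NO, 1 was called lower and 1 higher, beside 9.15% of all genes, 3.67% higher and 5.48% lower. Against both controls 1 gene was called, PSMB9, which was lower, beside 4.74% of all, 1.52% higher and 3.22% lower. Between siCTR and NO, 0 of the 42 were called, beside 3.51%. At 1.5-fold the counts were 7 against siCTR, 9 against NO, 4 against both and 2 between siCTR and NO, beside 20.8%, 24.8%, 13.9% and 8.24% of all genes. By order of the arrays alone, 15 of the 42 lay above all 4 control arrays and 12 below, beside 28.4% and 23.2% of all genes, 51.6% in all.

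The class I heavy chains and class I-like chains were the list with the highest median. For 7 measured genes it was 0.49 against siCTR and 0.50 against NO, beside 0.05 and 0.03 over all measured genes. It was 0.34 and 0.39 with the mean over probe sets of a gene, and 0.37 and 0.48 without siPIR replicate 1. Without _x_at and _s_at probe sets it was 0.64 and 0.51, but over a changed set. Only MICA and MICB kept the same probe set in that setting. The other genes were read from dimmer probe sets or dropped, and how many remained was not counted. Such changes of probe set or gene also apply to this setting in the lists below. Of the 7, 5 lay above all control arrays and 0 below, beside 28.4% and 23.2% of all genes. HLA-B had 12733 and 10912 in siPIR, 8611 and 8225 in siCTR, and 7542 and 7704 in NO, a difference of 0.49 and 0.63. HLA-C differed by 0.25 and 0.50, and HLA-G by 0.49 and 0.54. The probe sets used for these 3 genes are of the _x_at type, and for HLA-G the others ranged down to -0.21 and -0.11, so their signals are uncertain. MICA, a stress-induced ligand of the activating receptor NKG2D, had 3552 and 3448 in siPIR, 2305 and 1888 in siCTR, and 1438 and 1450 in NO. It was called higher against NO, at 1.27 (1.25 to 1.30), and differed by 0.74 against siCTR. siCTR lay above NO by 0.53.

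In the list of class I peptide supply and loading, 3 of 10 measured genes lay above all control arrays and 5 below, beside 28.4% and 23.2% of all genes. The median was -0.07 against each control. It turned to 0.09 against siCTR and 0.05 against NO with the filter at the 75th percentile, and to 0.03 and 0.0020 without NO replicate 1, and it was -0.19 and -0.11 without _x_at and _s_at probe sets. The lectin chaperone CANX differed by 0.22 against siCTR and 0.32 against NO, and the thiol oxidoreductase PDIA3 by 0.12 and 0.18, both above all control arrays. Other measured probe sets of CANX ranged down to -0.19 and -0.08. PSME1, a subunit of the proteasome activator PA28, differed by -0.34 and -0.15, below all. ERAP2, the partner of ERAP1 in trimming, had 32.8 and 37.1 in siPIR, 75.2 and 81.4 in siCTR, and 44.7 and 77.1 in NO. It was called lower against siCTR at -1.05 and was -0.67 from NO, with siCTR signals just above the measured limit. The call against siCTR was absent at 4 times the pseudocount, without siPIR replicate 1 and with the filter at the 75th percentile.

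PSMB9, a catalytic subunit of the immunoproteasome, had 472 and 428 in siPIR, 1134 and 1201 in siCTR, and 1057 and 1150 in NO. The siPIR arrays were well below the controls, which lay together. On the log2 scale siPIR was at -1.37 from siCTR (-1.48 to -1.25) and at -1.28 from NO (-1.42 to -1.15), called in both. PSMB9 lies next to TAP1 on chromosome 6, in the order TAP2, PSMB8, TAP1, PSMB9, and TAP1 and PSMB9 are transcribed away from each other. PSMB8, another immunoproteasome subunit, was chosen for its place after its values were seen. It had 1223 and 1093 in siPIR, 1550 and 1682 in siCTR, and 1580 and 1615 in NO, a difference of -0.48 and -0.46 without a call. In the siPIR pool TAP1 was thus above, and its neighbours PSMB9 and PSMB8 below, all control arrays.

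**Figure D4:**
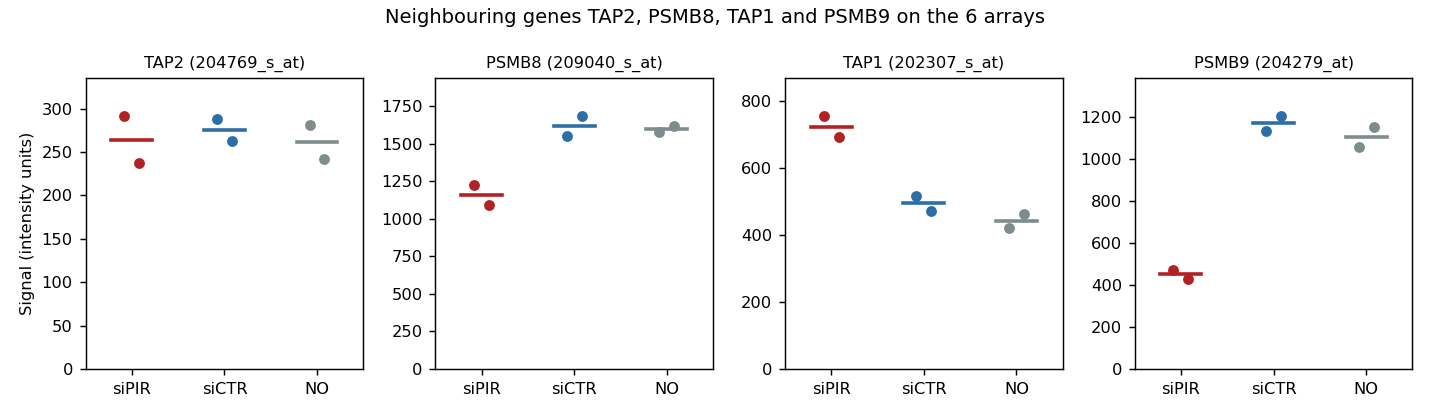
Signals of the neighbouring genes TAP2, PSMB8, TAP1 and PSMB9 on the 6 arrays, each by its brightest probe set, in intensity units with a point per array and a line at each pool mean. TAP1 is highest and PSMB9 and PSMB8 lowest in siPIR, while the TAP2 probe set overlaps between pools.

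The promoters of TAP1 and PSMB9 are shown because the genes share the stretch between them and differed in opposite directions. TAPBP and B2M are shown beside them as members of the same pathway that were a little higher and level. Sequences are from RefSeq on GRCh38.p14, each running from 250 bases before to 50 after an annotated gene start, on the strand of the gene. Capitals mark matches to 3 motifs, searched on both strands. They are the interferon response element core (GAAA, any 2 bases, GAAA), a form of the NF-kB site (GGG, any 3 bases, TTCC) and CCAAT, the letters bound by NF-Y.
TAP1, chr6:32853655-32853954, minus strand: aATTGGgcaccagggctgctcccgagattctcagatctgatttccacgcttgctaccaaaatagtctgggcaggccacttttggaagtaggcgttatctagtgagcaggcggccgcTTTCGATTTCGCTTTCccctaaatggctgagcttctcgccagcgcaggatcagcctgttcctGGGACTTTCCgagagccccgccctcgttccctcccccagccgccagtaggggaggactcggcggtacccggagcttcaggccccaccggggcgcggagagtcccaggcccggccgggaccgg
PSMB9, chr6:32853942-32854241, plus strand: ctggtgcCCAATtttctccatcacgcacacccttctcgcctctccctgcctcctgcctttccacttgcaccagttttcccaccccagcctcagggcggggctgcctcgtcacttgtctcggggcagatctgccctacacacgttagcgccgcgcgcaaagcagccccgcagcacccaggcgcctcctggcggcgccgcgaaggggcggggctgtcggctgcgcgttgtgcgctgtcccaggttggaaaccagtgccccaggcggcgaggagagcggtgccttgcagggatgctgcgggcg
TAPBP, chr6:33314029-33314328, minus strand: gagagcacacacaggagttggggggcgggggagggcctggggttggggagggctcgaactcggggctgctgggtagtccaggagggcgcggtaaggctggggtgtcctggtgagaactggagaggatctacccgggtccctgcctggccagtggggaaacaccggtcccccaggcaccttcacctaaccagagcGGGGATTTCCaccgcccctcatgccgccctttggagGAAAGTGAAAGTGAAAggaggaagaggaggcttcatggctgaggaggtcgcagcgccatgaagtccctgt
B2M, chr15:44711267-44711566, plus strand: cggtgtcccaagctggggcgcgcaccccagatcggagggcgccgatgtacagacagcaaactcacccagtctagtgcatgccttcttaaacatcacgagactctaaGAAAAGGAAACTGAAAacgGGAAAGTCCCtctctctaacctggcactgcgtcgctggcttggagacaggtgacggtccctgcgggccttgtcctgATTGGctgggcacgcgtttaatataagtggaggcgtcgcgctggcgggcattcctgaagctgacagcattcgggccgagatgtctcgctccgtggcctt

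The TAP1 and PSMB9 windows overlap by 13 bases, in which the single CCAAT of each is the same stretch read from either strand. TAP1 holds 2 overlapping matches to the interferon letters and the NF-kB letters GGGACTTTCC, none of which fall in the PSMB9 window. These TAP1 matches nevertheless lie between the gene starts of TAP1 and PSMB9, in the stretch that both genes share. The PSMB9 window is cut off before it reaches them, so their absence from it does not set the genes apart. TAPBP also holds 2 overlapping interferon matches and 1 NF-kB match, and B2M holds 2 overlapping interferon matches, 1 NF-kB match and 1 CCAAT. TAP1 has another annotated start, whose window holds none of the motifs. For 8 of the 10 members 11 windows were found, of which 6 hold the interferon letters, 5 the NF-kB letters and 5 CCAAT. Among all 35114 windows the shares were 3.57%, 6.52% and 34.6%. Of the members, B2M, HLA-F, TAP1, TAP2, TAPBP and ERAP1 have an interferon match, and their differences in siPIR ran in both directions. A match is a run of letters, not a measured site or a cause.

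Among the class II chains and loading genes, 0 of 10 measured were called in any pair of pools, beside 8.01% of all genes against siCTR, 9.15% against NO and 3.51% between siCTR and NO. By order of the arrays, 4 lay above all control arrays and 1 below, beside 28.4% and 23.2% of all genes. The median was 0.26 against siCTR, but 0.05 with the mean over probe sets of a gene. Against NO it was 0.13, but 0.01 without a filter and 0.07 without _x_at and _s_at probe sets. The endosomal proteases CTSB, LGMN and CTSL are the brightest genes of the list. CTSB, a cathepsin, had 25411 and 26442 in siPIR, 21171 and 21755 in siCTR, and 20137 and 21821 in NO, a difference of 0.27 and 0.31. LGMN, the asparagine endopeptidase, differed by 0.65 against siCTR and 0.19 against NO, with siCTR at -0.46 from NO. CTSL differed by -0.01 and 0.26. The beta chains of class II were added after their values were seen. HLA-DRB1, which pairs with HLA-DRA, differed by 0.56 and 0.64, above all control arrays. HLA-DPB1, which pairs with HLA-DPA1, differed by 0.34 against siCTR and by -0.04 against NO. HLA-DQB1, a dim chain of HLA-DQ, differed by -0.29 and -0.50, below all control arrays. The HLA-DRB1 and HLA-DQB1 probe sets are of the _x_at type. Other measured probe sets of HLA-DRB1 ranged down to 0.22 against siCTR and 0.49 against NO. For HLA-DQB1 the other measured probe sets ranged up to 0.53 against siCTR and 0.62 against NO. Those of HLA-DPB1 ranged down to -0.61 and -0.39, and those of CTSB down to -0.46 and -0.25.

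Of the regulators of HLA genes, 0 of 15 measured were called, beside the same 8.01%, 9.15% and 3.51% of all genes. By order of the arrays, 3 lay above and 6 below all control arrays, beside 28.4% and 23.2% of all genes. The median was -0.02 against siCTR and 0.04 against NO, and over the alternatives it ran from -0.09 to 0.12 and from -0.04 to 0.12. IFNGR2, a chain of the interferon gamma receptor, had 11315 and 11264 in siPIR, 7677 and 8020 in siCTR, and 6351 and 6516 in NO, which put it 0.52 and 0.81 higher in siPIR. The kinase JAK1, which signals from that receptor, had 2784 and 2773 in siPIR, 3875 and 4104 in siCTR, and 3524 and 3289 in NO, which put it at -0.52 and -0.29. JAK2, the other kinase of that receptor, was added after its values were seen and went the other way. It differed by 0.73 and 0.47, above all control arrays, and its other measured probe set by 0.14 and 0.40. RFX5, which binds the X box of class II promoters, differed by 0.10 and 0.07 with overlapping arrays. IRF2, a factor that binds interferon response elements, was chosen after its values were seen and differed by -0.84 and -0.93, below all control arrays and short of the call. IRF1, also chosen afterwards, differed by 0.05 and 0.24 with overlapping arrays, and its other measured probe set by -1.06 and -0.41. CIITA, the coactivator that class II transcription needs, was also chosen afterwards. It had 123 and 60.8 in siPIR, 66.3 and 82.0 in siCTR, and 136 and 51.5 in NO, near the measured limit with pools that overlapped.

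**Figure D5:**
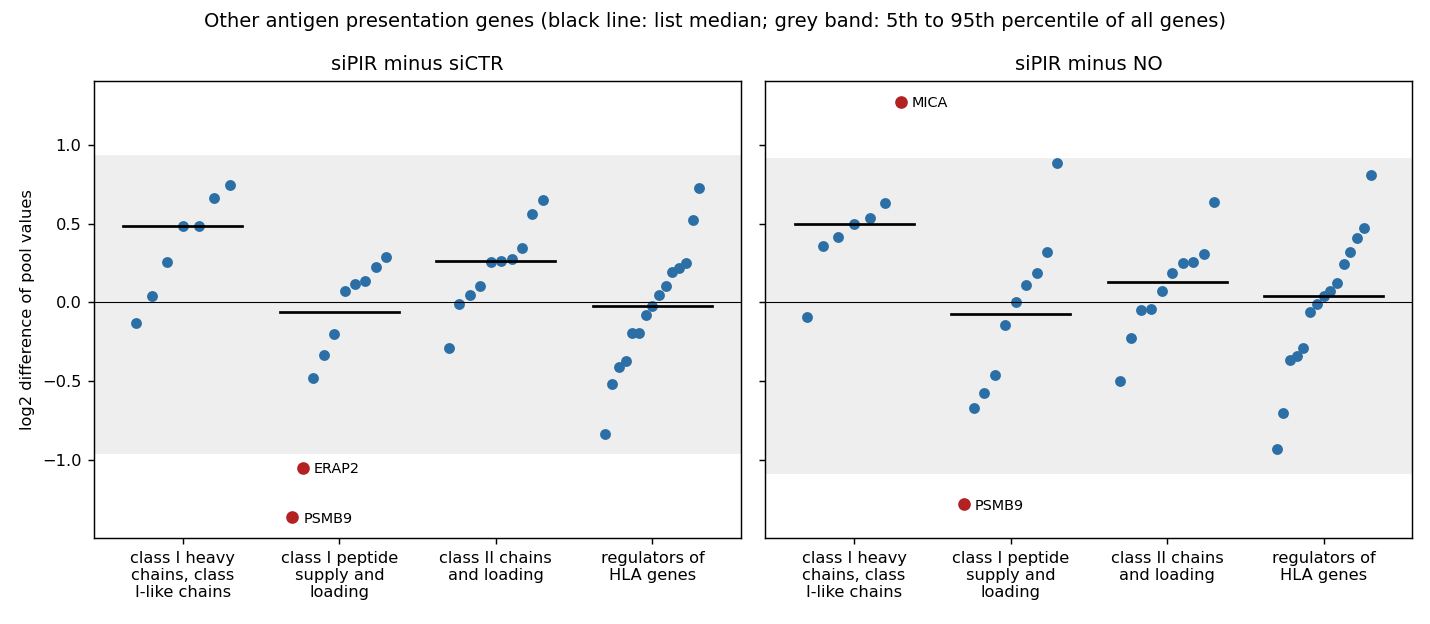
Log2 differences of the 42 other antigen presentation genes measured, in 4 lists, between the siPIR pool and the siCTR pool (left) or the NO pool (right). Each point is a gene, red points are called, black lines are list medians and the grey band holds the central 90% of all measured genes. PSMB9 is the only gene called in both panels, and most class I heavy chain genes lie above 0.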

How the data were processed

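The authors deposited probe set intensity, on a linear scale, for each array; per the submitters' processing notes it was made with GCOS, Affymetrix array software, whose version and options the sources used here do not state. With 2% of probe sets left out at either end, each array's mean was 500.1, as global scaling gives, so differences in total signal are not seen. Detection calls were not used. All 6 columns matched a sample (0 unmatched). Precision is limited by how few arrays there are.

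The deposited intensity was taken as log2(signal + 5.4), where 5.4 is the 10th percentile of all signals, which understates differences of dim probe sets. The arrays of a pool, repeat hybridisations, were averaged. On the array, 41097 probe sets are annotated with 1 gene, 1801 with several and 11777 with none listed. Named were PIR, all members, list genes called in any pair of pools, the 3 brightest genes of each list, and those said to be chosen later. Members and lists were chosen with earlier results of these data known. Python 3.11.15, pandas 2.3.3, numpy 2.4.6 and matplotlib 3.10.9 were used.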

Additional observations from a re-analysis of the deposited data

How the results depend on the processing

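No paired analysis was possible because the replicate numbers name the 2 arrays of a single RNA pool. With 1 pool per group, nothing here measures the spread between cultures, and array pairs cover hybridisation error alone. Of the counts and medians of members and the call counts of other genes, recomputed under each alternative, 147 values stayed within 1.5 times or the array spread, and 37 did not. Of the other values, which are differences of single probe sets, medians of the lists and of all probe sets, calls over all probe sets and the number of members measured, 1552 stayed and 71 did not. Medians over all probe sets were judged by a fixed limit instead. Many values could not move under some settings, as a single difference is untouched by the 1.5-fold limit, the filters or an array of the third pool. These totals therefore do not measure robustness. No called difference of a member probe set changed sign, and the signs of single differences of other genes were not checked.

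Calls of member probe sets numbered 3 against siCTR, 3 against NO, 2 against both and 1 between siCTR and NO. At 1.5-fold they were 5, 7, 3 and 4. Between siCTR and NO they were 0 at 4 times the pseudocount, 3 without a filter and 0 with a filter at the 75th percentile, and against NO they were 5 without a filter. Leaving out 1 array gave 3 to 5 against siCTR, the highest without siCTR replicate 2, 3 to 4 against NO, and 1 to 2 between siCTR and NO. The 15 probe sets outside all control arrays became 8 without _x_at and _s_at probe sets, of 12 measured.

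The median difference from siCTR, 0.18, was 0.14 with median centring, 0.14 without a filter, 0.23 with the stricter filter, 0.11 without _x_at and _s_at probe sets, and 0.09 to 0.19 on leaving out 1 array. The median from NO, 0.11, was 0.08 without a filter, 0.18 with the stricter filter and 0.08 to 0.16 on leaving out 1 array. Between siCTR and NO, -0.02 became -0.04 with quantile normalization, 0.04 with median centring, -0.0043 without _x_at and _s_at probe sets, and -0.06 to 0.01 on leaving out 1 array.

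Calls of other genes, 2 against siCTR, 2 against NO, 1 against both and 0 between siCTR and NO, were 7, 9, 4 and 2 at 1.5-fold. Against siCTR they were 1 at 4 times the pseudocount and 1 with the stricter filter. Between siCTR and NO they were 1 without a filter and 1 with the mean over probe sets of a gene. Leaving out 1 array gave 1 to 2 against siCTR, 2 to 4 against NO, 1 to 2 against both and 0 to 1 between siCTR and NO. Over all measured probe sets, 2531 calls against siCTR became 7445 without a filter, 758 with the stricter one and 6584 at 1.5-fold, and leaving out 1 array gave 2610 to 4413, the highest without siCTR replicate 2. The 1429 calls between siCTR and NO became 1494 to 3093 on leaving out 1 array, again the highest without siCTR replicate 2. Leaving out an array makes it easier for arrays of 2 pools not to overlap. Between siCTR and NO, 381 probe sets were called higher and 1048 lower, against 509 and 821 after quantile normalization. The causes were not tested.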

Other observations

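Other genes showed the pattern of HLA-DPA1, in which the brightest probe set lay within 0.5 log2 units of both controls while another was called lower than both. Among 6657 genes with at least 2 measured probe sets, 111 did so (1.67%), which is 27.9% of the 398 genes with any probe set called lower than both controls. In the opposite direction, 63 genes had a flat brightest probe set and another called higher, of 181 genes with any called higher. The limit of 0.5 was set after the values were seen.

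HLA-DMA, a chain of the peptide exchange factor of class II, had 1900 and 1850 in siPIR, 1639 and 1490 in siCTR, and 1604 and 1547 in NO, a difference of 0.26 and 0.25 with no overlap. MR1, a class I-like chain that presents vitamin metabolites to mucosal T cells, had 809.8 and 709.7 in siPIR, 447 and 511 in siCTR, and 602 and 577 in NO, a difference of 0.66 and 0.36. MICB, the relative of MICA, differed by -0.13 and -0.09 with arrays that overlapped. Another measured probe set annotated with it stood at 0.75 and 1.11, but that one is also annotated with MICA, so its signal can be that of MICA. These genes were picked after their values were seen.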
